A study of Mus musculus with 4 samples.

Results

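The subunits of oxidative phosphorylation were examined in the leaflets of the aortic and pulmonary valves of newborn Cxcr7-/- mice and of their wildtype littermates, which the labels call Control. Genes were taken by symbol: Nduf genes of the a, b, c, s and v series for complex I, Sdha to Sdhd for complex II, Uqcr genes for complex III, Cox4 to Cox8 genes for complex IV and Atp5 genes for complex V, without the Ndufaf assembly factors. This gave 82 of 18193 genes with a probe set that names 1 gene: 36 in complex I, 4 in complex II, 8 in complex III, 17 in complex IV and 17 in complex V. Each gene was read from the probe set with the highest mean over the 4 arrays. In all, 78 of the 82 had a mean above the median of the array and were tested.

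Cxcr7, listed as Ackr3, encodes a receptor that binds the chemokine CXCL12. There were 4 arrays, 2 of Cxcr7-/- pools and 2 of Control pools, each with RNA of 3 neonates, from 4 to 6 leaflets per mutant animal and 6 per littermate. The labels used here name no strain or sex and do not describe the Cxcr7 allele. The submitters call the pools biological replicates, and a pool hides the spread between its animals. The Ackr3 signal was 28.3 and 328 in Cxcr7-/- replicates 1 and 2 and 4936 and 5698 in Control replicates 1 and 2, in the direction of the labels. All 12 listed valve interstitial markers were measured, among them the matrix genes Postn (35352 to 59023) and Dcn (48668 to 68440), and so were all 12 endothelial markers. The heart muscle gene Myl2 also gave 17957 to 35920 in the 4 pools. In whole leaflets, fewer cells of a type and less RNA per cell cannot be told apart.

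Oxidative phosphorylation makes most of the ATP of a heart muscle cell. Complexes I and II pass electrons from NADH and succinate to ubiquinone, complex III hands them to cytochrome c, complex IV reduces oxygen, and complex V uses the resulting proton gradient to make ATP. Most subunits are needed in every cell. A few subunits of complex IV come in pairs, with 1 form found in most tissues and another in heart and skeletal muscle: Cox6a2, Cox7a1 and Cox8b are the muscle forms of Cox6a1, Cox7a2 and Cox8a. Cox7a1 and Cox8b are also expressed in brown fat.

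Promoter sequences are shown for 2 of these pairs. The pairs were picked because the largest differences between the genotypes fell on the muscle forms, with smaller ones in their partners. No promoter sequence was found for Cox6a2, so its pair is not shown. The RefSeq sequences run from 250 bases before to 50 after the transcription start, on build GRCm38.p6, and were found for 67 of the 82 genes (72 windows). Capitals mark 3 motifs, searched on both strands and not overlapping here: TATAAA and the E-box CAGCTG in Cox8b, and the ETS core CCGGAAG, read as CTTCCGG on the other strand, in Cox8a. The 4 windows lie at chr7:140900397-140900696 (Cox8b, minus strand), chr19:7217567-7217866 (Cox8a, minus), chr7:30183921-30184220 (Cox7a1, plus) and chr9:79759804-79760103 (Cox7a2, minus), each written 5′ to 3′ along its gene.
Cox8b: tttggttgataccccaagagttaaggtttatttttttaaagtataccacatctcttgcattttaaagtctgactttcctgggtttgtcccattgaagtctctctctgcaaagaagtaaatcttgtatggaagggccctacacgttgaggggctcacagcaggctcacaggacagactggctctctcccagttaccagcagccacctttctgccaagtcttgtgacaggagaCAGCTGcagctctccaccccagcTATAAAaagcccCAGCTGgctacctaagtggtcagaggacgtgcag
Cox8a: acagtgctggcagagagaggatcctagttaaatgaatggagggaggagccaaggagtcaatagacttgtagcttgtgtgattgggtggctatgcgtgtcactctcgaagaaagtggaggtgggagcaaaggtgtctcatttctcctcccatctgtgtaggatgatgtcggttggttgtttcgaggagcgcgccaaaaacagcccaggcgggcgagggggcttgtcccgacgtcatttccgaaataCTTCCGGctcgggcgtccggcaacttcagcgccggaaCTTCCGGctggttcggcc
Cox7a1: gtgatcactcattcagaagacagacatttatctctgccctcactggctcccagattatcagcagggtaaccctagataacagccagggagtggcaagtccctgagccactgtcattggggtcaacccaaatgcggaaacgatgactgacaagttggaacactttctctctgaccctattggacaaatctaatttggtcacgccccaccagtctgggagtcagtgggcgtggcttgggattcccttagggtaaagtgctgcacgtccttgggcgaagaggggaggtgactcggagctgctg
Cox7a2: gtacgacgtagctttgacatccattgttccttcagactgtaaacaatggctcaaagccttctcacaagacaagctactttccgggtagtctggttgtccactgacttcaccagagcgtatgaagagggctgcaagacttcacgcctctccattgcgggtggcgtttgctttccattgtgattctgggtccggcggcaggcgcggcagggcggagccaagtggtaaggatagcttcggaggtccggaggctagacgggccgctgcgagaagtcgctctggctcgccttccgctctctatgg

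The Cox8b window held 1 TATAAA and 2 CAGCTG and only 2 CpG dinucleotides, and the Cox7a1 window held 7 CpG and none of the motifs searched. The Cox8a window held 2 ETS cores and 19 CpG, and the Cox7a2 window 20 CpG with none of the motifs. The window of Cox6a1 had 32 CpG, 1 ETS core and 1 palindrome of the factor NRF1. Over all 72 windows of the subunits the median was 19 CpG, against 7 over the 32851 windows of the table. The ETS core was in 23.6% of the subunits' windows (17 of 72) and in 8.86% of all. The NRF1 palindrome was in 5.56% (only 4 windows) and 0.971%, and TNAAGGTCA (the element of estrogen-related receptors) in 4.17% (only 3 windows) and 1.28%. TATAAA was in 12.5% (9 windows) and 13.6%, and CAGCTG in 8.33% (6 windows) and 16.3%. The motifs were chosen after the sequences had been read, and a match is a description of the letters only.

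The largest differences among the 78 subunits were those of the muscle isoforms of complex IV. Cox8b read 11.4 and 62.7 in Cxcr7-/- replicates 1 and 2 and 184 and 339 in Control replicates 1 and 2. The genotypes did not overlap, and Cxcr7-/- replicate 1 was close to the 22 added before taking logarithms, so the size of its log2 fold change of -2.36 ± 0.56 (SE of limma, n = 2 and 2 pools) is uncertain. It was -1.48 with an added value 4 times larger. Cox6a2 read 349 and 416 in Cxcr7-/- pools, against 882 and 2206 in Control pools. Both mutant pools were below both Control pools, at -1.82 ± 0.43, and its other probe set read 368 and 266 against 531 and 2077 (-1.68 ± 0.57). Cox7a1 read 249 and 177 against 266 and 971, so that 1 Control pool lay just above the mutant pools and the other far above. Its log2 fold change was -1.20 ± 0.56.

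No probe set passed an adjusted p of 0.05 in limma, 0% of the 22518 tested, and the muscle isoforms did not either: the adjusted p was 0.406 for Cox8b, 0.406 for Cox6a2 and 0.514 for Cox7a1. Without adjustment, 10.1% of all probe sets had a limma p under 0.05 (6.18% lower and 3.94% higher in Cxcr7-/- pools), and Cox8b and Cox6a2 were among them. Single pools moved these values. Cox6a2 was at -1.16 without Control replicate 2 and at -2.47 without Control replicate 1, and Cox7a1 at -0.31 and -2.10. Cox8b was at -1.69 without Cxcr7-/- replicate 1 and at -3.03 without Cxcr7-/- replicate 2. Without Control replicate 1 the limma adjusted p was 0.00736 for Cox6a2 and 0.0196 for Cox7a1. Over the alternative settings it ran from 0.00736 to 1 for Cox6a2, from 0.0196 to 1 for Cox7a1 and from 0.0509 to 1 for Cox8b.

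The ubiquitous partners had smaller differences. Cox6a1 read 28863 and 22575 in Cxcr7-/- pools and 26200 and 29314 in Control pools, a log2 fold change of -0.12 ± 0.21. Cox7a2 read 24001 and 18213 against 18163 and 29019 (-0.13 ± 0.27), and Cox8a 689 and 407 against 531 and 947 (-0.41 ± 0.39). All 3 overlapped between the genotypes. Cox6a1 and Cox7a2 were at 0.019 and 0.0029 once each array was centred on its median, and the other kept probe set of Cox8a was at 0.38 ± 0.41, so none of the 3 had a settled direction.

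**Figure D1:**
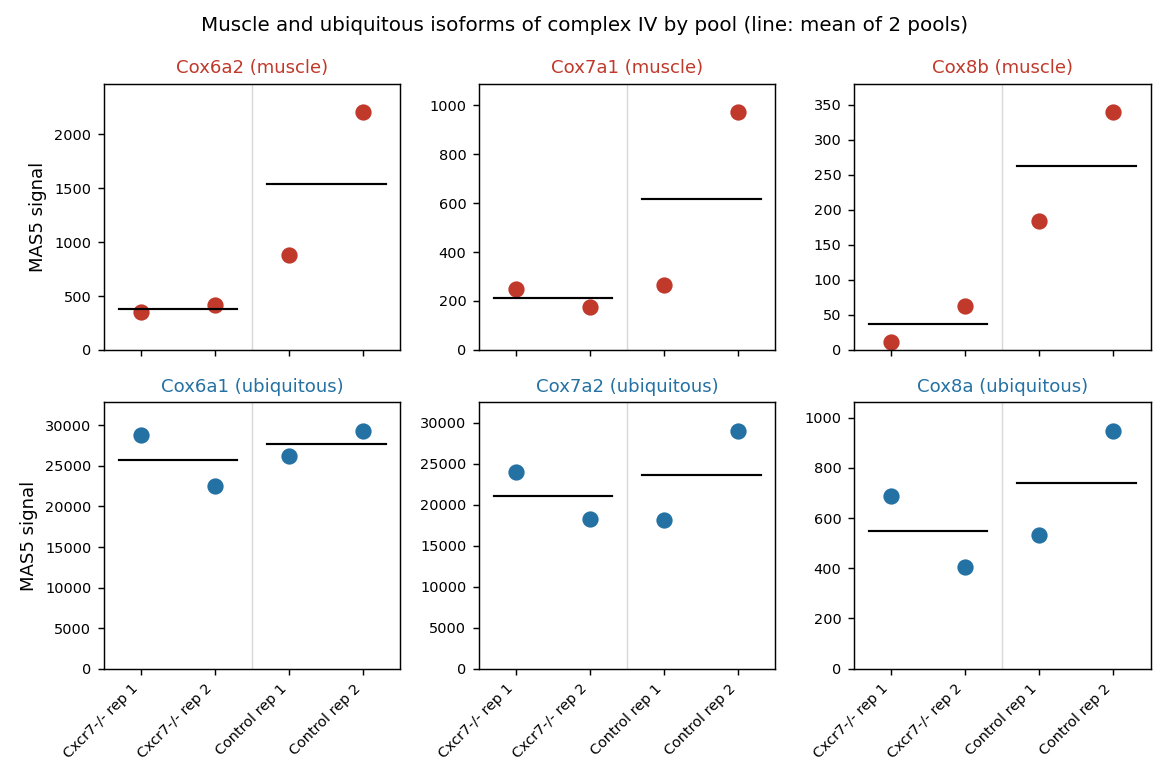
MAS5 signal (linear axis from 0, a scale of its own in each panel) of the muscle isoforms (top, red) and ubiquitous isoforms (bottom, blue) of complex IV in each of the 4 pools; points are single pools and lines the mean of 2 pools. Both Cxcr7-/- pools lie below both Control pools for the 3 muscle isoforms, and the genotypes overlap for the 3 ubiquitous ones.

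Each pair was compared within a pool, as the log2 value of the muscle form minus that of its partner, centred on the pair's mean over the 4 pools. For Cox6a2 and Cox6a1 this was -1.15 and -0.55 in Cxcr7-/- replicates 1 and 2 and 0.28 and 1.42 in Control replicates 1 and 2. The genotypes differed by -1.70, with a pooled SD between replicates of 0.64. For Cox7a1 and Cox7a2 the values were -0.51 and -0.56 against -0.02 and 1.09, a difference of -1.07 (pooled SD 0.56). For Cox8b and Cox8a they were -2.01 and 0.06 against 0.98 and 0.98, a difference of -1.95 (pooled SD 1.04). In each of the 3 pairs both mutant pools were below both Control pools. The exact two-sided permutation p was 0.333 for each, which is the smallest that 2 against 2 pools can give, so these differences could not reach the threshold. With 1 pool left out they ran from -2.27 to -1.13, from -1.62 to -0.51 and from -2.99 to -0.92, in the same order of pairs.

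Markers of muscle and fat were read beside these isoforms. Of all 11260 genes, 49.7% had negative log2 fold changes and 4.03% were lower at an unadjusted p under 0.05. Of 25 cardiomyocyte markers, all measured, 24 had negative log2 fold changes (median -0.80) and 11 were lower at an unadjusted p under 0.05. Their summed signal was 133475 and 189258 in Cxcr7-/- pools and 226423 and 304414 in Control pools. Alpha myosin heavy chain (Myh6) was at -1.54 ± 0.34, cardiac troponin I (Tnni3) at -1.55 ± 0.38, and myoglobin (Mb), the oxygen store of muscle, at -1.67 ± 0.44. Of 19 skeletal muscle markers 8 were measured, and 7 were negative, 0 of them with a limma p under 0.05 before adjustment. The summed signal of all 19, those too dim to test included, was 4441 and 8828 against 11388 and 15694. Of 9 matched brown adipocyte markers 4 were measured, and all 4 were negative, with Plin5 at -1.92 ± 0.50, Dio2 at -0.85 ± 0.31 and Prdm16 at -1.04 ± 0.43. Plin5, a lipid droplet protein, is also abundant in heart muscle. The summed signal of the 9 matched brown adipocyte markers was 2193 and 3253 against 5617 and 3912. Most of it came from Fabp4, at 1381 and 2357 against 3483 and 2307, which overlapped. Ucp1, the gene that defines brown fat, read 8.19 and 9.70 against 46.4 and 2.96, at or near background. Of the other markers too dim to test, Cidea read 41.9 and 27.4 against 139 and 103, and Adipoq 2.63 and 22.4 against 88.0 and 90.3. Elovl3 went the other way, at 64.9 and 81.3 against 43.9 and 34.5, and Pparg overlapped. Of 12 endothelial markers 10 were negative (median -0.56), of 8 measured smooth muscle markers 7 (median -0.66), and of 11 macrophage markers 0 (median 0.80). Between the 2 Control pools the lists ran differently: replicate 2 minus replicate 1 had a median of 1.30 for the muscle isoforms and 0.66 for cardiomyocyte markers, but -1.23 for skeletal muscle and -0.41 for brown adipocyte markers. The part of these cells in the isoform values was not tested.

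The other subunits were slightly lower in Cxcr7-/- pools on average, and the 2 genotypes overlapped for most of them. Of the 78 tested, 66 had a log2 fold change below 0, where 49.7% of all 11260 genes did, and the median was -0.26 against 0.00 over all genes. Without the 3 muscle isoforms the median of the other 75 was -0.24. At an unadjusted p under 0.05, 4 of the 78 were lower (5.13%) and 0 higher, against 4.03% lower and 3.93% higher of all genes. Without the 3 muscle isoforms 2 were lower. Both Cxcr7-/- pools were below both Control pools for 18 of the 78 (23.1%, against 19.1% of all genes), the 3 muscle isoforms among them. They were above both for 1, Atp5c1 (1.28%, against 21.1%). The smallest adjusted p of any subunit in limma was 0.406.

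**Figure D2:**
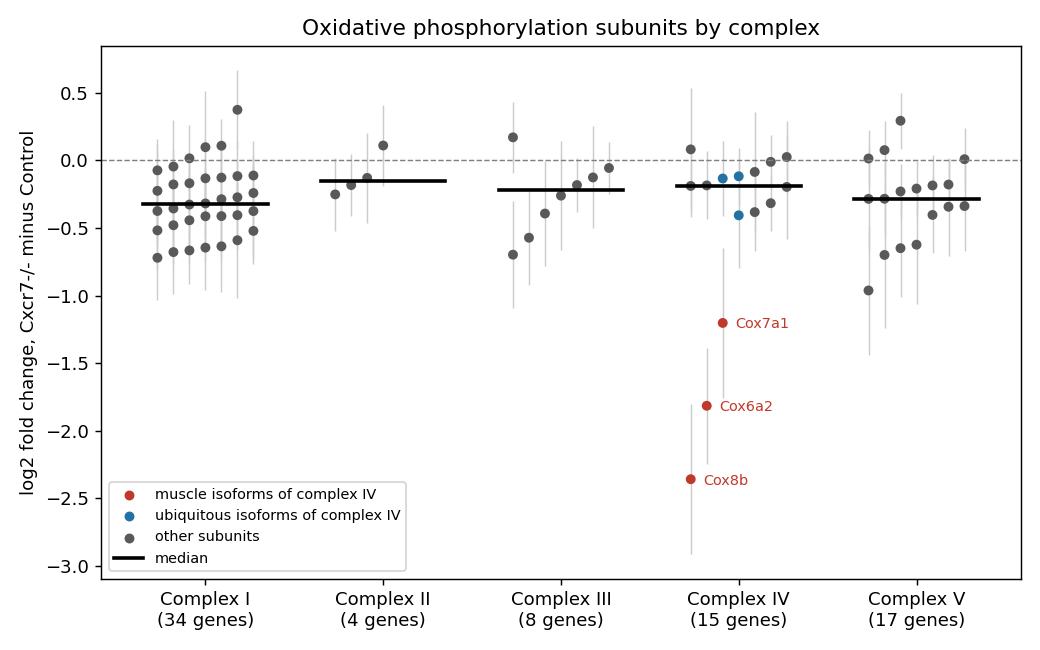
Log2 fold change (Cxcr7-/- minus Control) of the 78 tested subunits by complex; points are genes, vertical lines 1 SE of limma, black bars the median of each complex. The 3 muscle isoforms lie from -1.20 to -2.36, and all other subunits between -0.96 and 0.37.

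The medians of the 5 complexes lay close together. The median log2 fold change was -0.32 for the 34 tested genes of complex I, -0.16 for the 4 of complex II, -0.22 for the 8 of complex III, -0.19 for the 15 of complex IV and -0.28 for the 17 of complex V. Complex IV was at -0.16 without its 3 muscle isoforms. The medians of single pools spread more than the complexes did: the pooled SD between replicates was 0.31 for complex I, 0.26 for II, 0.44 for III, 0.18 for IV and 0.25 for V. Members of a complex are not replicates, and no test was made on these medians.

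Pools of the same genotype differed from each other in most subunits. Control replicate 2 had the highest of the 4 signals for 59 of 78 subunits (75.6%, against 31.1% of all genes), and Cxcr7-/- replicate 2 had the lowest for 52 (66.7%, against 22.3%). The median subunit was 0.47 higher on the log2 scale in Control replicate 2 than in Control replicate 1, where the median of all genes was at 0.00, and 0.33 lower in Cxcr7-/- replicate 2 than in replicate 1. Relative to each gene's mean, complex I stood at 0.06 and -0.34 in Cxcr7-/- replicates 1 and 2 and at -0.07 and 0.40 in Control replicates 1 and 2. Complex III stood at 0.01 and -0.21 against -0.16 and 0.68, and complex V at 0.02 and -0.25 against -0.16 and 0.25. Cxcr7-/- replicate 1 was thus above Control replicate 1 in these 3 complexes. In complex IV, at -0.02 and -0.35 against 0.07 and 0.24, both mutant pools were below both Control pools. This rested on the 3 muscle isoforms. Without them complex IV stood at 0.12 and -0.28 against 0.02 and 0.17, with Cxcr7-/- replicate 1 again above Control replicate 1. Cardiomyocyte markers did not follow the order of the subunits in the mutant pools. The marker median was 0.47 higher in Cxcr7-/- replicate 2 than in replicate 1, and 0.66 higher in Control replicate 2 than in Control replicate 1.

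**Figure D3:**
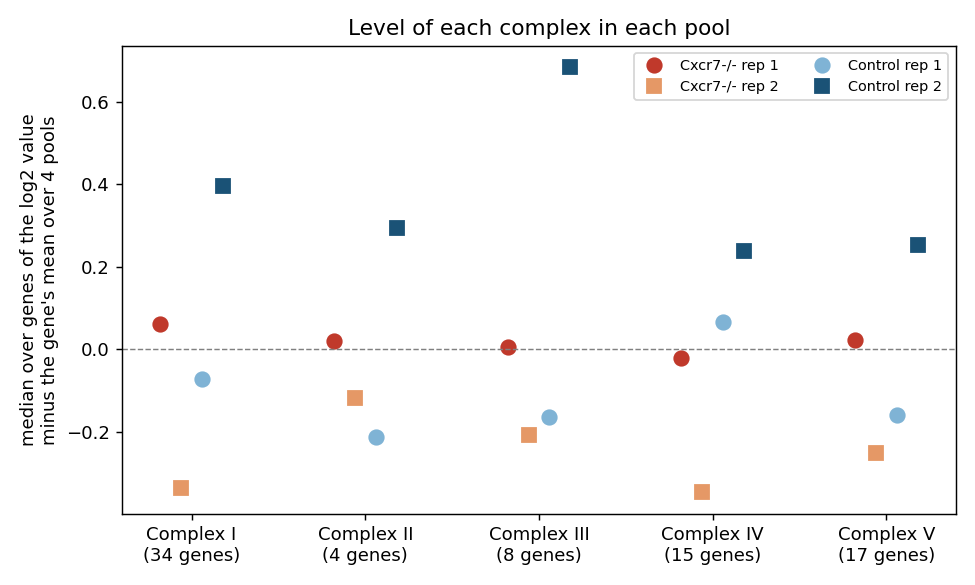
Level of each complex in each pool, as the median over its tested genes of log2(signal + 22) minus the gene's mean over the 4 pools. Control replicate 2 is highest in all 5 complexes, Cxcr7-/- replicate 1 lies above Control replicate 1 in complexes I, II, III and V, and Cxcr7-/- replicate 2 is lowest in complexes I, III, IV and V.

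The medians depended on which pool was left out. Without Control replicate 2 they were -0.10 for complex I, 0.14 for II, -0.003 for III, -0.10 for IV and -0.012 for V, and 50 of 78 subunits were negative. Without Cxcr7-/- replicate 2, 47 of 78 were negative and the complex I median was -0.12. Without Control replicate 1 the medians were -0.56, -0.37, -0.78, -0.40 and -0.36 in the same order, 32 of 78 subunits were lower at an unadjusted p under 0.05 (where 10.5% of all probe sets were), and 6 passed the adjusted threshold in limma: Atp5d, Ndufv3, Ndufb8, Cox6a2, Atp5l and Cox7a1, at adjusted p from 0.00736 to 0.0438. With all pools none did.

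**Figure D4:**
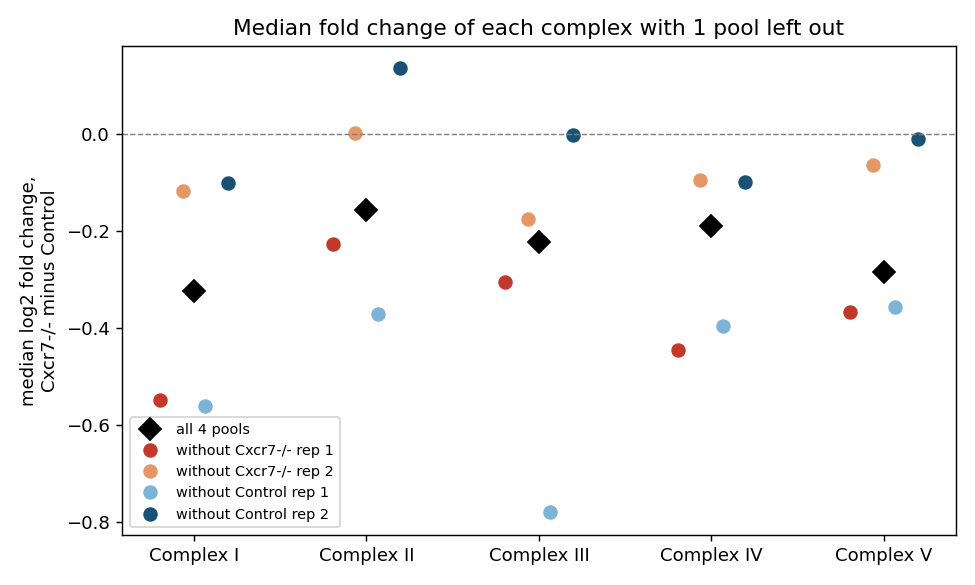
Median log2 fold change (Cxcr7-/- minus Control) of the tested genes of each complex with all 4 pools (black diamonds) and with 1 pool left out (coloured points). The medians move towards 0 without Control replicate 2 or Cxcr7-/- replicate 2, and complex III ranges from -0.78 to -0.003.

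In complex I, which takes electrons from NADH, 30 of 34 tested genes were negative. At an unadjusted p under 0.05, 2 were lower (5.88%, against 4.03% of all genes). Ndufs7, an iron-sulfur subunit next to the ubiquinone site, read 5161 and 4635 in Cxcr7-/- pools and 6515 and 9282 in Control pools, a log2 fold change of -0.67 ± 0.25 (adjusted p = 0.459 in limma), and its other probe set was at -0.83 ± 0.30. The groups did not overlap at either probe set. Ndufa5, an accessory subunit of the matrix arm, read 8511 and 4991 against 9076 and 12754 (-0.72 ± 0.31). With 1 pool left out Ndufs7 ran from -0.92 to -0.41 and Ndufa5 from -1.10 to -0.34. Among the other core subunits, Ndufv1, which binds NADH, was at -0.52 ± 0.25, Ndufs8 at -0.38 ± 0.35, Ndufs3 at -0.32 ± 0.25, Ndufv2 at -0.18 ± 0.25 and Ndufs1 at 0.01 ± 0.24. The median of these 6 core redox subunits was -0.35, and that of the 28 accessory subunits was -0.31. The accessory subunit Ndufv3 was at -0.68 ± 0.31. The highest value was that of Ndufs4 at 0.37 ± 0.29, whose 4 kept probe sets ran from -1.02 to 0.55. Ndufa4, named for complex I and since assigned to complex IV, was at -0.23 ± 0.35. The only probe set that names Ndufb4 alone, at 9.93 and 40.4 against 110 and 19.0, was too dim to test. A probe set shared by Ndufb4, Ndufb4b and Ndufb4c read 4672 and 2613 against 3683 and 5384 (-0.35 ± 0.34). The hypoxia-induced paralogue Ndufa4l2, at 24.9 and 9.70 against 13.1 and 11.2, was also too dim.

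Complex II, which oxidises succinate and also works in the citric acid cycle, had no subunit with an unadjusted p under 0.05. The flavoprotein Sdha read 6414 and 5814 in Cxcr7-/- pools and 6260 and 7689 in Control pools (-0.18 ± 0.23). The iron-sulfur subunit Sdhb read 7317 and 5068 against 4922 and 9031 (-0.13 ± 0.33). Of the membrane anchors, Sdhc was at -0.25 ± 0.27 and Sdhd at 0.11 ± 0.30. The genotypes overlapped for all but Sdhc.

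In complex III, 7 of 8 genes were negative, with the lowest values in the small subunits Uqcr11 (1591 and 972 in Cxcr7-/- pools, 1427 and 2892 in Control pools, -0.70 ± 0.39) and Uqcrq (1727 and 1261 against 1600 and 3039, -0.57 ± 0.35). In both genes Control replicate 2 was highest and Control replicate 1 lay between the mutant pools. The core proteins Uqcrc1 and Uqcrc2 were at -0.39 ± 0.39 and -0.18 ± 0.20, and the hinge protein Uqcrh at 0.17 ± 0.26. None had an unadjusted p under 0.05.

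Of the other subunits of complex IV, Cox5a was at -0.01 ± 0.20, Cox6c at 0.02 ± 0.27, Cox4i1 at -0.19 ± 0.23, Cox6b1 at -0.19 ± 0.25 and Cox7c at -0.20 ± 0.39, with another probe set of Cox7c at 0.70. Cox5b was at -0.32 ± 0.20 and did not overlap, with 25185 and 20802 against 27002 and 30137. Cox7a2l, a factor of respiratory supercomplexes, was at -0.38 ± 0.29. The testis forms Cox6b2 and Cox8c were at -0.09 ± 0.44 and 0.08 ± 0.45 at low signal. Cox4i2, the lung form, at 8.50 and 35.3 against 21.0 and 62.8, and Cox7b2, at 9.37 and 17.7 against 3.29 and 2.82, were too dim to test.

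In complex V, 13 of 17 genes were negative and none had an unadjusted p under 0.05. Atp5l, subunit g of the membrane part, read 525 and 328 in Cxcr7-/- pools and 508 and 1352 in Control pools (-0.96 ± 0.47), so its difference lay in Control replicate 2. The delta subunit Atp5d did the same, with 5974 and 5698 against 5282 and 15341 (-0.62 ± 0.44). In the catalytic F1 head, the alpha subunit Atp5a1 was at -0.21 ± 0.21, the beta subunit Atp5b at 0.07 ± 0.22, the epsilon subunit Atp5e at -0.34 ± 0.36 and the gamma subunit Atp5c1 at 0.29 ± 0.21. Atp5c1 read 28326 and 27053 against 20120 and 25392. At the probe set used for each gene, it was the only tested subunit with both Cxcr7-/- pools above both Control pools. Its other probe set was at -0.19 ± 0.35. Among the further kept probe sets of other subunits, some lay above both Control pools in both mutant pools and some below. The 3 genes of the c ring, which encode the same mature protein, were all negative, with both Cxcr7-/- pools below both Control pools as in 19.1% of all genes: Atp5g1 at -0.65 ± 0.36 (-0.17 without Control replicate 2), Atp5g2 at -0.28 ± 0.28 and Atp5g3 at -0.18 ± 0.19. The 4 genes of the peripheral stalk, which holds the head still, had a median of -0.09, from -0.23 ± 0.20 for Atp5h to 0.01 ± 0.21 for Atp5pb. Another kept probe set of Atp5pb was at 0.48 ± 0.28, with both Cxcr7-/- pools above both Control pools. Of the small membrane subunits, Atp5k read 8189 and 3385 against 5041 and 14560 (-0.70 ± 0.54). Leaving out Control replicate 2 brought Atp5k to 0.063. Its other kept probe sets were at -0.82 ± 0.32, with no overlap, and -1.09 ± 0.62. Atp5j2 was at -0.40 ± 0.29.

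**Figure D5:**
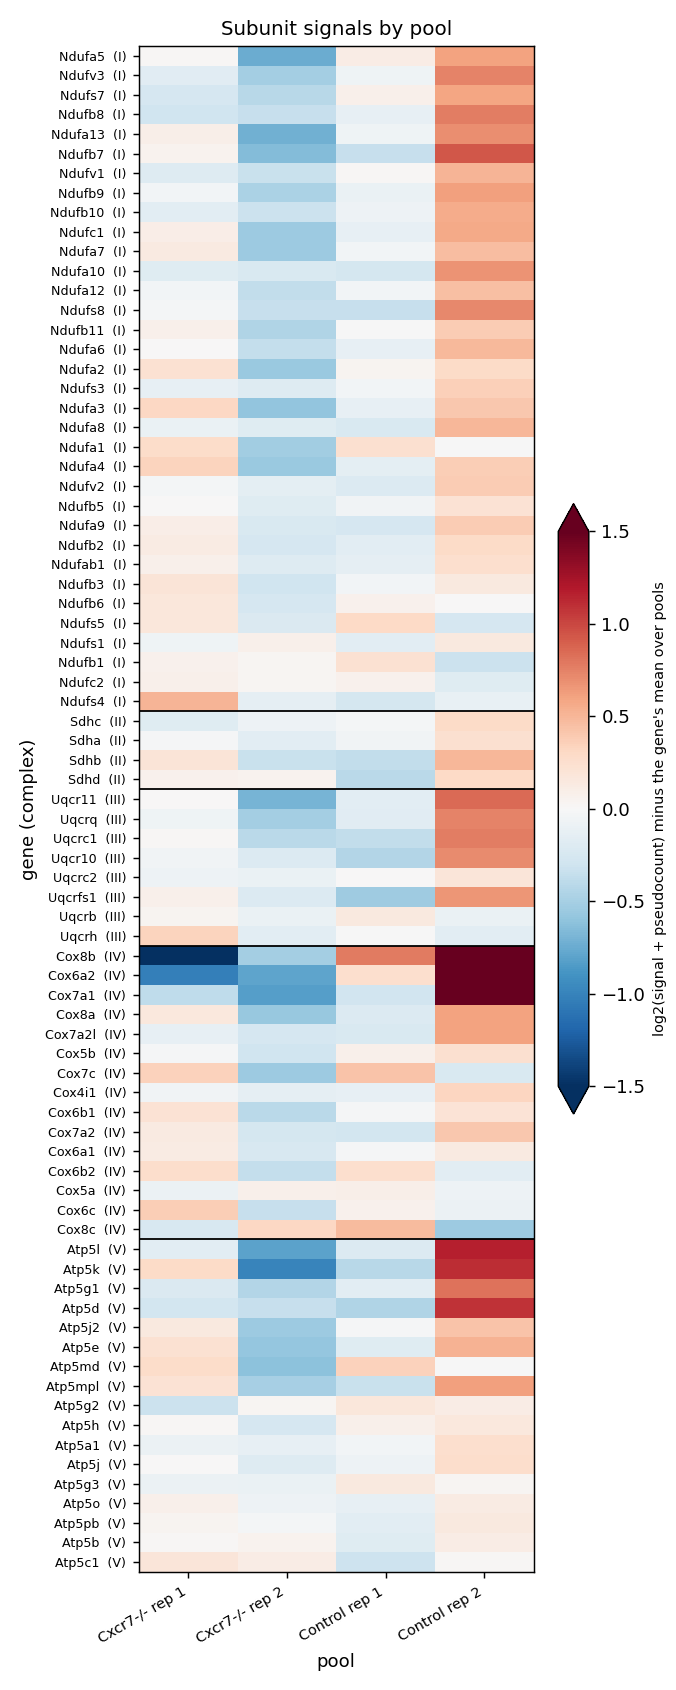
Log2(signal + 22) of the 78 tested subunits (rows, grouped by complex and ordered by fold change) in the 4 pools (columns), minus each gene's mean over the pools; red is above and blue below that mean, and colours stop at 1.5 in either direction. The column of Control replicate 2 is mostly red and that of Cxcr7-/- replicate 2 mostly blue, and the 3 muscle isoforms have the strongest colours.

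Other genes of mitochondrial energy supply were spread around 0. The counts below stand beside 49.7% negative and 4.03% lower at an unadjusted p under 0.05 among all genes. Of 75 mitochondrial ribosomal protein genes, 42 were negative and the median was -0.05, with 0 at an unadjusted p under 0.05. Citric acid cycle genes had a median of -0.11, with 10 of 17 negative and none at an unadjusted p under 0.05. Assembly factors had a median of -0.02, with 21 of 39 negative and 2 lower at an unadjusted p under 0.05: Ndufaf4, an assembly factor of complex I (2035 and 2267 in Cxcr7-/- pools, 3197 and 4952 in Control pools, -0.88 ± 0.28), and Atpaf1, an assembly factor of the F1 head (-0.76 ± 0.32). Genes of transport and energy transfer had a median of 0.04, with 7 of 16 negative and 1 at an unadjusted p under 0.05, the muscle creatine kinase Ckm. Ckm read 1142 and 1351 against 1881 and 6324 (-1.46 ± 0.50, and -0.59 without Control replicate 2). The electron carriers cytochrome c (Cycs) and cytochrome c1 (Cyc1) were at -0.04 ± 0.20 and -0.44 ± 0.28. Of the subunits encoded by mitochondrial DNA 1 was matched, ND5 of complex I, at 0.00 ± 0.30.

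Among 17 measured regulators of mitochondrial biogenesis 12 were negative, with a median of -0.16, and 2 were lower at an unadjusted p under 0.05. Of all genes 49.7% were negative and 4.03% were lower at that threshold. The nuclear receptor Esrrg, which drives oxidative genes in heart muscle, read 86.6 and 170 in Cxcr7-/- pools and 309 and 256 in Control pools (-1.07 ± 0.41). Its coactivator Ppargc1a read 309.9 and 799 against 1092 and 976 (-1.01 ± 0.43). Leaving out Cxcr7-/- replicate 1 brought Ppargc1a to -0.36. The genotypes did not overlap for either. On the other side, the mitochondrial transcription factor Tfam read 1283 and 1535 against 1138 and 1105 (0.32 ± 0.26) and Tfb1m 519 and 472 against 372 and 235 (0.70 ± 0.34). The lists of these genes were matched in part to the array, and none of their members passed the adjusted threshold in limma.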

How the data were processed

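Per the labels, each pool gave 50 ng of total RNA, amplified in 2 rounds. For each probe set the authors deposited 1 linear intensity per array, made with MAS5 in Affymetrix Expression Console per the submitters' processing notes (no version given there). Every array had a mean of 500.003 with 2% trimmed at each end. Median signals were 84.5 and 92.5 in Cxcr7-/- pools and 110 and 89.9 in Control pools. The number of arrays limits the precision.

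Signals were taken as log2(signal + 22), where 22 is the rounded 25th percentile, and 22518 of 45037 non-control probe sets above the median were kept. The 2 genotypes were set against each other in limma 3.58.1, R 4.3.3 (intensity trend, two-sided, Benjamini-Hochberg over the probe sets kept). The procedure was tested on simulated data. The simulated errors were independent between probe sets, so a shift shared by many genes of a pool was not part of that test. Genes were named by an annotation table of the array: 34945 probe sets had 1 symbol, 932 several and 9160 none. The 10 probe sets that name a subunit beside another gene were left out. Of the 78 probe sets used, 22 have names ending in _s_at or _x_at and can bind related transcripts. Of 45 subunits with several kept probe sets, 11 had probe sets of opposite sign.

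Members, lists and alternatives were chosen with earlier results of these data known. Named genes were Ackr3, the 6 isoforms, up to 4 genes of smallest p and the most positive gene in each complex, core and F1 head genes, tissue forms, and up to 3 genes per list. Others were chosen after their values were seen. Replicate numbers share no stated litter or day, so pools were not paired.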

Additional observations from a re-analysis of the deposited data

How the results depend on the processing

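With 2 pools per genotype and 0 probe sets past the adjusted threshold in limma (2279 at an unadjusted p under 0.05), no value is a call. The medians of the 5 complexes and the 3 isoform differences were below 0 in 110 of 112 alternative values. The exceptions were complex II at 0.14 without Control replicate 2 and at 0.0006 without Cxcr7-/- replicate 2. Of 113 alternative values of the main results that left out no pool, 108 stayed within the spread between replicates or, for counts, within 1.5 times. Leaving out the intensity trend or taking the replicate number as a block cannot change a fold change. The medians and isoform differences of those settings repeat the main ones in both counts and say nothing on stability. The number of subunits lower at an unadjusted p under 0.05, 4 in the main setting, was 2 with the filter at the 75th percentile, with median centring and without the intensity trend. Cox8b fell out of the test under the stricter filter and without a pseudocount. Median centring raised the median of all probe sets from -0.02 to 0.12, left 53 of 78 subunits negative and turned the split of probe sets at an unadjusted p under 0.05 from 1391 lower and 888 higher to 809 and 1421. With quantile normalization it was 1143 and 1029, the filter at the 75th percentile gave 526 and 579, and 1 mean value per gene gave 486 and 514.

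With 1 pool left out, the probe sets past the adjusted threshold ranged from 0 to 673 and the subunits past it from 0 to 6, and the subunits at an unadjusted p under 0.05 from 2 to 32. The medians ranged from -0.56 to -0.10 for complex I, -0.37 to 0.14 for II, -0.78 to -0.003 for III, -0.45 to -0.10 for IV and -0.37 to -0.012 for V. The cause was not tested. Named genes that turned sign when 1 pool was left out ran from -0.57 to 0.31 (Sdhb), -0.25 to 0.46 (Sdhd), -0.96 to 0.18 (Uqcrc1), -0.076 to 0.41 (Uqcrh), -0.43 to 0.59 (Cox8c), -1.39 to 0.14 (Atp5d), -0.30 to 0.059 (Cox6a1), -0.47 to 0.20 (Cox7a2), -0.14 to 0.17 (Ndufs1), -0.91 to 0.16 (Ndufs8), -0.47 to 0.11 (Ndufv2), -0.070 to 0.22 (Atp5b), -0.75 to 0.061 (Atp5e), -0.80 to 0.031 (Cox7a2l), -0.40 to 0.23 (Cox6b2), -0.64 to 0.25 (Cox7c), -1.46 to 0.063 (Atp5k), -0.14 to 0.17 (Atp5pb), -0.41 to 0.032 (Cox4i1), -0.099 to 0.076 (Cox5a), -0.49 to 0.12 (Cox6b1), -0.33 to 0.38 (Cox6c), -0.67 to 0.22 (Ndufa4), -0.17 to 0.084 (Cycs), -0.041 to 0.45 (Dcn), -0.44 to 0.43 (ND5) and -0.061 to 0.65 (Postn).

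The fit with the replicate number as a block gave 3 subunits at an unadjusted p under 0.05 and 0 past the adjusted threshold. Same-numbered pools deviated with r = -0.26 across probe sets. With crossed numbers as a block, chosen after the data were seen, 16 subunits were lower at an unadjusted p under 0.05 and 5 probe sets passed the adjusted threshold, 0 of them subunits. Under that block 8.45% of all probe sets were lower at an unadjusted p under 0.05, against 6.18% without it.

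Among the named genes, 19 values turned sign under settings that left out no pool: Sdhb to 0.0074, Cox6a1 to 0.019, Cox7a2 to 0.0029, Cox5a to 0.13, Cycs to 0.094, ND5 to 0.14 and Cox6b2 to 0.051 with median centring, Cox6b2 to 0.039, Atp5pb to -0.078, Cox6c to -0.0090 and Ndufs1 to -0.013 with quantile normalization, Ndufs4 to -0.0029, Cox6c to -0.097, Cox7c to 0.25 and Dcn to -0.24 with the mean of a gene's probe sets, and Atp5c1 to -0.19, Cox8a to 0.38, Cox7c to 0.70 and Ndufs8 to 0.22 without probe sets ending in _s_at or _x_at.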
